A study of Mus musculus with 4 samples.

Results

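The 9 genes described here encode transcription factors that are known to set or follow position along the intestine: the zinc finger factors Gata4, Gata5 and Gata6, the cut-homeobox factors Onecut2 and Onecut3, the caudal homeobox factors Cdx1 and Cdx2, the odd-skipped zinc finger factor Osr2, and the pancreatic and duodenal homeobox factor Pdx1. They were taken by name from the gene column of the arrays, as 9 of 37074 gene names, and 14 probes carried these names. Of these genes, 5 had 2 probes and 4 had 1 probe.

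The gut epithelium keeps the identity of each segment throughout life, because its stem cells go on expressing the segment's transcription factors. GATA4 is known to maintain the jejunal programme of lactose digestion and fat absorption in the mouse and to repress ileal bile acid genes. CDX2 is needed for intestinal identity as a whole, and PDX1 is best known for the pancreas and the duodenum.

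Epithelium was scraped from ileum and jejunum of C57BL/6J mice aged 9 weeks, and RNA was hybridised to 1-colour Agilent arrays. All mice were Tcrbd-/-, so they had no T cell receptor beta or delta genes and lacked T cells, in every group. The groups were ileum of DAOG181R/G181R mice, ileum of DAOwt/wt mice, jejunum of DAOG181R/G181R mice and jejunum of DAOwt/wt mice, called G181R and wild-type below. DAO is D-amino acid oxidase, which breaks down D-amino acids, and the G181R substitution is known to abolish its activity. Each group was 1 pool of RNA from 5 mice on 1 array, all 4 arrays lay on 1 slide, and no test between groups was run. The only error that could be measured was that between replicate spots of a probe on 1 array, which leaves out the difference between mice and between pools. A probe level does not read a base change, so the genotype labels were not checked. Dao itself, on its brightest probe, had signals of 144.5 in G181R ileum and 156.9 in wild-type ileum, against 1239 in G181R jejunum and 1309 in wild-type jejunum. On a dimmer Dao probe the G181R signals were the higher ones. It gave 14.2 in G181R ileum and 9.39 in wild-type ileum, against 115.2 in G181R jejunum and 83.8 in wild-type jejunum.

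Between 57.4% and 60.4% of the probes were well above background on each array. No probe was saturated on any of them. The tissue labels were checked with textbook markers. Fabp6, the ileal bile acid binding protein, was higher in ileum by 13.09 log2 units in G181R and by 13.72 in wild-type. Lct, the lactase of the upper intestine, differed by -8.73 in G181R and -9.83 in wild-type. The arrays therefore carried the markers of the tissues on their labels. Summed levels of 6 epithelial markers lay between 1381 and 1436 times the 75th percentile of an array, a narrow range over the 4 pools. Single markers were less even. In each genotype 4 of the 6 were higher in ileum and 2 lower, and Krt19 was 2.37-fold higher in G181R and 2.87-fold higher in wild-type.

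Signals below are scanner intensities with background subtracted. A log2 level is the log2 signal minus the array's 75th percentile, and a difference is that level in 1 group minus that in the other. A difference counted from 2-fold, and a probe well above background on only 1 array of a pair was given a lower bound, written "at least". Each gene was represented by whichever of its probes was brightest over the 4 arrays. The SD of log2 differences between replicate spots was 0.244 for signals under 50, 0.104 for signals of 50 to 500 and 0.0557 above that. Only probes whose replicate spots were all well above background entered these SDs, and the first rests on 28 values. No SD was measured for signals not well above background. Levels of different probes are not comparable, so the genes are not ranked against each other by signal. Where the tissues are said not to overlap, this describes the 4 values of that gene only. The share of all genes without such overlap is not given here.

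Ileum and jejunum differed in 5 of the 9 factors in G181R mice. Cdx1 and Osr2 were higher in ileum, and Gata4, Onecut2 and Pdx1 were lower. In wild-type mice the same factors differed in the same directions, and Gata6 was lower as well. Among 23722 gene names seen on at least 1 array in G181R mice, 7.91% were at least 2-fold higher in ileum and 9.62% at least 2-fold lower. In wild-type mice, with 23086 gene names seen, these shares were 8.28% higher and 10.0% lower. The counts of factors were 2 higher and 3 lower of 9 seen in G181R, and 2 higher and 4 lower of 8 seen in wild-type. These genes were proposed with earlier results of the same arrays known, so the counts describe them and support nothing beyond that. The median difference over the 7 factors seen on both arrays was -0.25 in G181R and -0.04 in wild-type, beside -0.03 in G181R and -0.05 in wild-type over all genes seen on both.

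**Figure D1:**
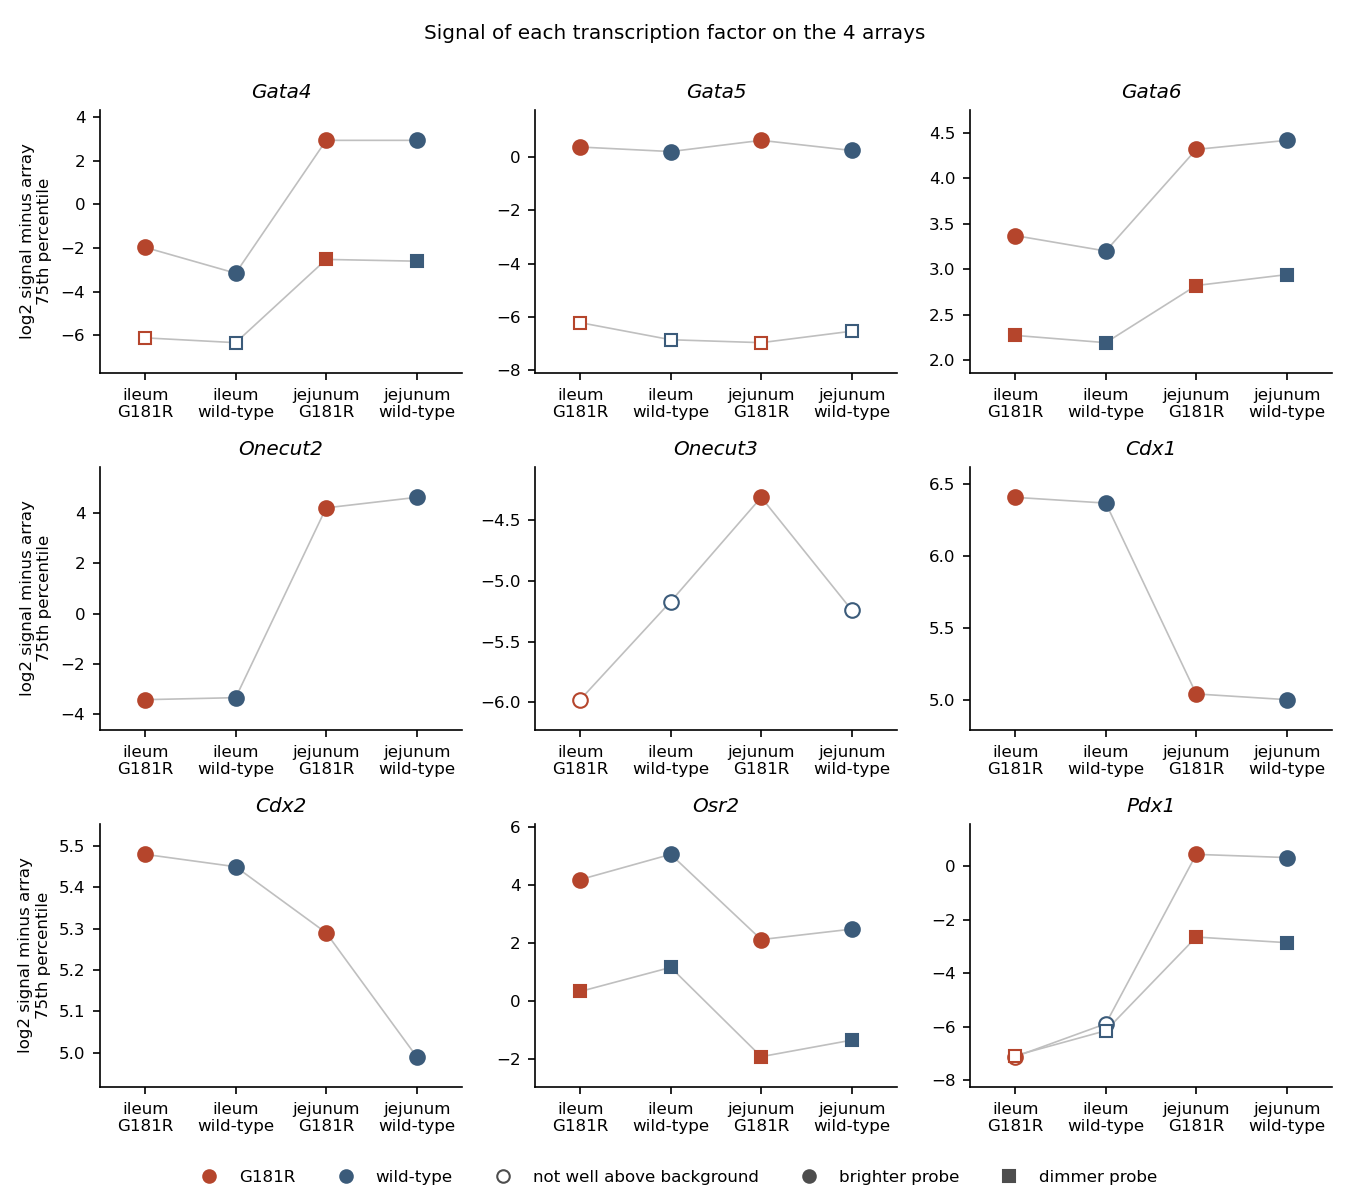
Log2 signal minus the array's 75th percentile (vertical axis, its own scale in each panel) of every probe of the 9 genes on the 4 arrays. Each point is 1 array, filled where the probe was well above background and open where it was not; circles are the brighter probe of a gene and squares the dimmer one. Gata4, Onecut2 and Pdx1 lie low in both ileum pools, and Cdx1 and Osr2 lie high there.

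Gata4 was low in ileum and high in jejunum. Its brightest probe (mm9, chr14:63817858-63817917, minus strand) gave signals of 44.6 in G181R ileum and 20.9 in wild-type ileum, against 1213 in G181R jejunum and 1186 in wild-type jejunum. The tissues did not overlap, and the 2 jejunum pools differed by less than the SD between spots. The difference of ileum minus jejunum was -4.90 in G181R, which is 29.8-fold lower, and -6.07 in wild-type, which is 67.3-fold lower. Counted from the lowest, these stood at place 46 of 21474 genes in G181R and place 16 of 20751 genes in wild-type. The second probe (mm9, chr14:63860003-63860062, minus strand) was not well above background in ileum, with signals of 2.54 in G181R and 2.30 in wild-type, against 27.9 in G181R jejunum and 25.7 in wild-type jejunum. It gave at least 5.00-fold lower expression in ileum in G181R and at least 4.22-fold lower in wild-type. After normexp correction, an alternative that compresses weak signals, the Gata4 differences were -3.66 in G181R and -4.04 in wild-type.

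Gata6, which is expressed along the whole small intestine, differed much less. Its brightest probe (mm9, chr18:11085494-11085553, plus strand) gave 1807 in G181R ileum and 1698 in wild-type ileum, against 3196 in G181R jejunum and 3334 in wild-type jejunum. Both ileum pools were below both jejunum pools, and the difference of -0.96 in G181R (1.94-fold) was just under the 2-fold line while that of -1.22 in wild-type (2.33-fold) was past it. The second probe (mm9, chr18:11057522-11057581, plus strand), designed on a different cDNA, gave 843.9 in G181R ileum and 844.4 in wild-type ileum, against 1129 in G181R jejunum and 1198 in wild-type jejunum. It differed by -0.55 in G181R and -0.75 in wild-type, and with the mean of both probes the wild-type difference was -0.98. Endothelial markers moved the same way: the 5 genes had a summed level of 1.47 in G181R ileum and 1.52 in wild-type ileum, against 3.41 in G181R jejunum and 3.81 in wild-type jejunum. Their part in the Gata6 difference was not tested. In bulk RNA of this kind, fewer cells of a type and less RNA per cell cannot be told apart.

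Gata5 was nearly level across the 4 arrays. Its brightest probe (mm9, chr2:180059867-180059926, minus strand) gave 227 in G181R ileum and 212 in wild-type ileum, against 246 in G181R jejunum and 185 in wild-type jejunum. As log2 levels these were 0.37 in G181R ileum and 0.20 in wild-type ileum, against 0.62 in G181R jejunum and 0.24 in wild-type jejunum. The tissues overlapped, since G181R ileum lay between the jejunum values, and the differences of -0.25 in G181R and -0.04 in wild-type did not reach 2-fold. A second probe, on a separate cDNA, was not well above background on any array. Gata5os is transcribed from the opposite strand beside Gata5, and its probe gave 58.7 in G181R ileum and 51.7 in wild-type ileum, against 71.2 in G181R jejunum and 51.9 in wild-type jejunum. The 3 GATA factors therefore had 3 different tissue patterns on these arrays, with Gata4 far lower in ileum, Gata6 moderately lower and Gata5 nearly level.

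Zfpm1, which encodes the GATA cofactor FOG1, was also lower in ileum. Its signals were 389.5 in G181R ileum and 361.3 in wild-type ileum, against 2971 in G181R jejunum and 3307 in wild-type jejunum. The differences were -3.06 in G181R (8.37-fold lower) and -3.44 in wild-type (10.8-fold lower), and a second Zfpm1 probe differed by -2.64 in G181R and -3.35 in wild-type. Its relative Zfpm2 (FOG2) was well above background on the wild-type jejunum array alone.

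Onecut2 had the largest tissue difference of the 7 factors measured on all 4 arrays. Its only probe (mm9, chr18:64546262-64546321, plus strand) gave 16.1 in G181R ileum and 18.0 in wild-type ileum, against 2977 in G181R jejunum and 3902 in wild-type jejunum. All 4 values were well above background, and both ileum pools were far below both jejunum pools. The differences were -7.66 in G181R (203-fold lower) and -8.00 in wild-type (257-fold lower), which stood at place 5 from the lowest in both genotypes. Because the ileal signals were dim, the normexp correction shortened these differences to -5.48 in G181R and -5.93 in wild-type.

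The other ONECUT genes could be compared only as bounds. Onecut1, also called HNF6 and known from liver and pancreas, was not well above background in ileum, with signals of 1.44 in G181R and 1.73 in wild-type, against 325.3 in G181R jejunum and 437.8 in wild-type jejunum. It was at least 58.4-fold lower in ileum in G181R and at least 72.0-fold lower in wild-type on that probe, and a second probe of Onecut1 was not well above background on any array. Onecut3 (mm9, chr10:79979941-79980000, plus strand) had signals of 2.78 in G181R ileum and 5.14 in wild-type ileum, against 8.04 in G181R jejunum and 4.13 in wild-type jejunum. Only the G181R jejunum value was well above background, so Onecut3 was at least 1.44-fold lower in ileum in G181R and gave no comparison in wild-type.

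Pdx1 was seen in jejunum and not in ileum. Its brightest probe (mm9, chr5:148087315-148087374, plus strand) gave 1.27 in G181R ileum and 3.13 in wild-type ileum, both not well above background, against 217.9 in G181R jejunum and 196.1 in wild-type jejunum. Expression was at least 39.1-fold lower in ileum in G181R and at least 32.3-fold lower in wild-type. The second probe (mm9, chr5:148086570-148086629, plus strand) was likewise seen in jejunum only, with 25.6 in G181R and 21.7 in wild-type, and gave at least 4.59-fold lower expression in ileum in G181R and at least 3.56-fold lower in wild-type. Under the normexp correction the bounds of the brightest probe were -2.38 in G181R and -2.30 in wild-type on the log2 scale. Of 7 pancreas markers, Cpa1, Pnlip, Amy2a5, Ins1 and Ins2 were not well above background on any array. Ctrb1 and Cela2a were well above background on all 4 arrays. Ctrb1 gave 63.1 in G181R ileum and 40.7 in wild-type ileum, against 34.7 in G181R jejunum and 27.5 in wild-type jejunum. Cela2a lay between 8.88 and 12.3. The summed level of the list was 0.488 in G181R ileum and 0.408 in wild-type ileum, against 0.376 in G181R jejunum and 0.324 in wild-type jejunum.

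Enteroendocrine genes moved in the same direction as Pdx1. Gip, the hormone of the K cells of the upper intestine, gave 56.1 in G181R ileum and 64.9 in wild-type ileum, against 1848 in G181R jejunum and 1926 in wild-type jejunum. Of 9 enteroendocrine markers, 5 were at least 2-fold lower in ileum in G181R and 4 in wild-type, with medians of -1.26 in G181R and -0.83 in wild-type. Pax6, a homeobox factor of hormone-producing cells, differed by -4.26 in G181R and -2.83 in wild-type. The part of these cells in the Pdx1 difference was not tested.

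Pdx1 and Cdx2 are near neighbours on chromosome 5, with 25173 bases between their closest probes in mm9, and the tissue difference passed 2-fold in Pdx1 only. The 250 bases before the start of each gene are printed here, from RefSeq on GRCm38.p6, to let the promoters of these neighbours be compared. They lie at chr5:147269847-147270096 (plus strand) for Pdx1 and chr5:147307250-147307499 (minus strand) for Cdx2, read 5′ to 3′, and capitals mark the E-box CACGTG.
Pdx1 promoter: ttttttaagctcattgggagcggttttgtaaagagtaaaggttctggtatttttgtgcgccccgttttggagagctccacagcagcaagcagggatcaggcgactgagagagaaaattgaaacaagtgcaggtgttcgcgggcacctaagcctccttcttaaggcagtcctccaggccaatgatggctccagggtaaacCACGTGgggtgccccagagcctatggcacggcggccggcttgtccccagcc
Cdx2 promoter: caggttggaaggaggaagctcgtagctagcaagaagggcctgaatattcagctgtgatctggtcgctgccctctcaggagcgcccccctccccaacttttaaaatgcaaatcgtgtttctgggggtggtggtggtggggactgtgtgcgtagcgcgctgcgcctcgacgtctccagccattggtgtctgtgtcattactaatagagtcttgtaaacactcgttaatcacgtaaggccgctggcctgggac
The E-box, a palindrome bound by basic helix-loop-helix factors, occurs once in the Pdx1 window, at 51 to 46 bases before the start, and not in the Cdx2 window. It was searched for after the sequence had been read, and 6.02% of 32851 promoter windows of this length hold it. The letters GATAA (22.6% of windows), CATAAA (10.8%) and ATTGAT (6.72%), searched on both strands as short forms of GATA, CDX and ONECUT motifs, are not in either window. GATAA and ATTGAT can overlap in their shared GAT. Gata5 was the only other member in this promoter table.

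Cdx2 differed little between the tissues. Its only probe (mm9, chr5:148112547-148112606, minus strand) gave 7812 in G181R ileum and 8059 in wild-type ileum, against 6247 in G181R jejunum and 4963 in wild-type jejunum. Both ileum pools were above both jejunum pools, but the differences of 0.19 in G181R (1.14-fold) and 0.46 in wild-type (1.37-fold) did not reach 2-fold. Hnf4a, a nuclear receptor that acts with CDX2 in enterocytes, differed by 0.03 in G181R and 0.45 in wild-type.

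Cdx1 was higher in ileum by nearly the same amount in both genotypes. Its only probe (mm9, chr18:61178558-61178617, minus strand) gave 14842 in G181R ileum and 15324 in wild-type ileum, against 5241 in G181R jejunum and 4979 in wild-type jejunum. The tissues did not overlap, and the genotypes differed by 0.03 in ileum and 0.04 in jejunum, less than the spot SD. The difference of ileum minus jejunum was 1.37 in G181R (2.58-fold higher) and 1.38 in wild-type (2.60-fold higher). The third caudal gene, Cdx4, was not well above background on any array.

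Genes known as CDX targets in the intestine did not move as a block. Of 10 such genes, 1 was higher and 1 lower in ileum in G181R, and 2 were higher and 1 lower in wild-type, with medians of -0.15 in G181R and -0.20 in wild-type. Cldn2, a pore-forming claudin, was 5.98-fold higher in ileum in G181R and 15.7-fold higher in wild-type. Sis, the sucrase-isomaltase of the brush border, differed by -1.59 in G181R and -1.06 in wild-type, and the wild-type difference fell short of 2-fold under quantile scaling. Cdh17, the liver-intestine cadherin, differed by -0.19 in G181R and -0.23 in wild-type. Abcb1a, a drug efflux transporter, was 3.27-fold higher in ileum in wild-type and differed by 0.26 in G181R.

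Osr2, a factor best known from palate and limb development in the mouse, was higher in ileum on both of its probes. The brightest probe (mm9, chr15:35232978-35233037, plus strand) gave 3172 in G181R ileum and 6132 in wild-type ileum, against 689.6 in G181R jejunum and 864.7 in wild-type jejunum. Both ileum pools were above both jejunum pools, and the wild-type ileum pool stood above the G181R one. Expression was 4.20-fold higher in ileum in G181R and 5.99-fold higher in wild-type. The second probe spans a splice junction, since its 60 bases cover 1016 bases of the genome (mm9, chr15:35230691-35231706, plus strand), and it therefore reads spliced Osr2 RNA. It is printed because the 2 probes lie at different places in the transcript and gave nearly the same differences.
Osr2 junction probe: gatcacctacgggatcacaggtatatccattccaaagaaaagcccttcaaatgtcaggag
That probe gave 218.6 in G181R ileum and 410.8 in wild-type ileum, against 42.1 in G181R jejunum and 60.7 in wild-type jejunum. It was 4.74-fold higher in ileum in G181R and 5.71-fold higher in wild-type.

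Genes of other cell types were also unequal between the pools that Osr2 was measured in. The 8 smooth muscle markers had a summed level of 41.5 in G181R ileum and 95.8 in wild-type ileum, against 52.3 in G181R jejunum and 47.8 in wild-type jejunum. In G181R mice 4 of them were at least 2-fold lower in ileum, and in wild-type mice 6 were at least 2-fold higher. The 6 fibroblast markers had medians of -0.94 in G181R and -0.49 in wild-type, although Lum and Dcn among them were higher in ileum. Of 5 adipocyte markers, 4 were at least 2-fold higher in ileum in each genotype. All 5 B cell markers were at least 2-fold higher in ileum in both genotypes, with medians of 3.48 in G181R and 1.81 in wild-type. The part of these cells in the Osr2 difference was not tested. The paralog Osr1 was well above background on the wild-type ileum array alone.

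**Figure D2:**
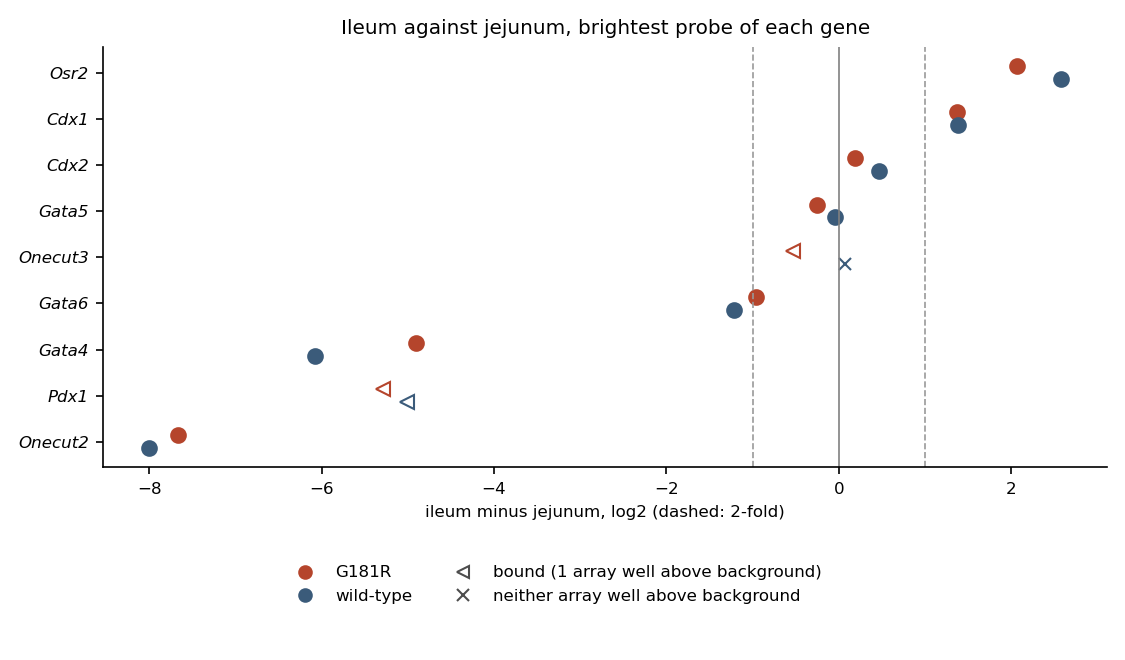
Log2 difference of ileum minus jejunum (horizontal axis) for the brightest probe of each of the 9 genes, in G181R and wild-type mice, with dashed lines at 2-fold. Filled circles are measured on both arrays, open triangles are bounds, and crosses are pairs in which neither array was well above background; Onecut2 lies lowest, at -7.66 in G181R and -8.00 in wild-type, and Osr2 highest, at 2.07 in G181R and 2.58 in wild-type.

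Other transcription factors of the intestinal epithelium and partners of these genes were read from a list of 18. In G181R mice 2 were higher and 2 lower in ileum, and in wild-type mice 4 were higher and 3 lower, with medians of 0.11 in G181R and 0.38 in wild-type. Under the normexp correction these counts were 1 higher (Foxa1) and 2 lower (Zfpm1 and Hnf4g) in both genotypes. Foxa1, a forkhead pioneer factor, gave 1895 in G181R ileum and 2200 in wild-type ileum, against 358.5 in G181R jejunum and 333.8 in wild-type jejunum, which is 4.82-fold higher in G181R and 5.57-fold higher in wild-type. Sox9, a factor of crypt cells, was 2.70-fold higher in ileum in G181R and 2.53-fold higher in wild-type on its brightest probe, and a dimmer probe differed by 0.63 in G181R and 0.32 in wild-type. Hnf4g, the paralog of Hnf4a, was 2.88-fold lower in ileum in G181R and 3.24-fold lower in wild-type.

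Genes of the proximal enterocyte moved with Gata4, and those of the distal enterocyte moved against it. Of 12 proximal genes, 10 were lower and 2 higher in ileum in both genotypes, with medians of -3.31 in G181R and -2.62 in wild-type. Fabp1, the liver-type fatty acid binding protein, was 56.6-fold lower in G181R and 38.4-fold lower in wild-type, and Rbp2, which carries retinol, was 34.4-fold lower in G181R and 31.3-fold lower in wild-type. The exceptions were both genes of iron transport: Slc40a1 (ferroportin) was 8.31-fold higher in ileum in G181R and 6.40-fold higher in wild-type, and Cybrd1 (duodenal cytochrome b) was 2.82-fold higher in G181R and 2.56-fold higher in wild-type, though Cybrd1 was not past 2-fold under the normexp correction or as the mean of its probes. Of 7 distal genes, 5 were at least 2-fold higher in ileum in G181R and 6 in wild-type. None was at least 2-fold lower, though 1 was below 0 in G181R, and the medians were 1.56 in G181R and 2.01 in wild-type. Slc10a2, the ileal bile acid transporter, was 256-fold higher in G181R and 371-fold higher in wild-type. Membership of these lists overlaps with how segments are told apart, so they check the tissues and are not independent evidence on the factors.

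**Figure D3:**
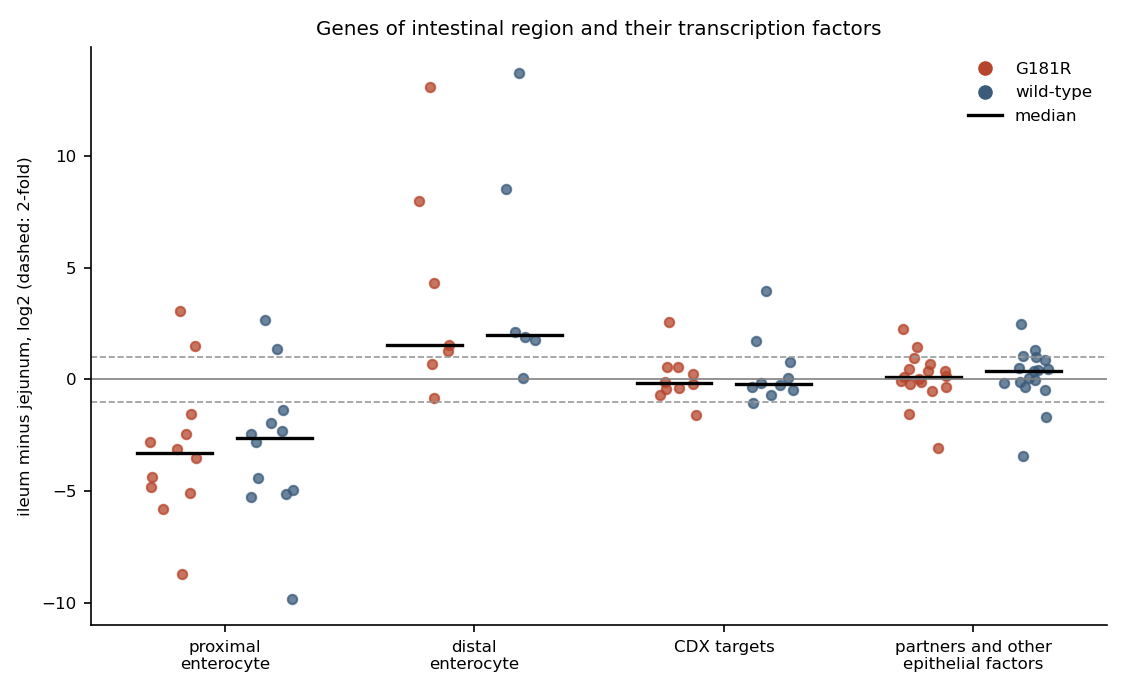
Log2 difference of ileum minus jejunum (vertical axis, dashed lines at 2-fold) of each gene of 4 lists that was well above background on both arrays, in G181R mice and wild-type mice, with the list's median as a bar. Proximal genes lie mostly below 0 and distal genes mostly above it, with 6 distal genes above 0 and 1 below in G181R. CDX targets and other epithelial factors lie on both sides of 0, with medians of -0.15 and 0.11 in G181R.

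For the 5 factors that varied by at least 1 log2 unit and were well above background on all 4 arrays, the most similar genes were sought among 12716 genes, by the distance between the 4 log2 levels, each centred on its mean. The nearest to Gata4 were Efr3b at a distance of 0.53, Car2 at 0.76 and Apoa4, an apolipoprotein of fat absorption, at 0.86. For Onecut2 they were Cyp2b9 at 0.45, Cyp2b10 at 0.67 and Ugt2a3 at 0.71, which encode enzymes of drug and steroid metabolism. Cyp2b9 and Cyp2b10 are near copies of each other, so their probes may share signal. Osr2 was nearest to Retn at 0.14, Neu1 at 0.19 and Tst at 0.20, while Cdx1 was nearest to Hr, Tfap4 and Reps1, at 0.05 to 0.07. The genes nearest to Gata6 were Oasl1, Klra2 and Ebi3, at 0.04 to 0.05. A distance over 4 values from 4 arrays says that the patterns were alike and no more.

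Fewer of these factors passed 2-fold between the DAO genotypes than between the tissues, and the same held for all genes seen. In jejunum, 0 of 9 factors differed by 2-fold between G181R and wild-type mice, while 2.55% of 23098 gene names did. In ileum, 1 of 7 factors seen did, namely Gata4, while 6.43% of 23233 gene names did. The 8 factors seen on both jejunum arrays differed by -0.42 (Onecut2) to 0.38 (Gata5), with a median of 0.02, beside -0.01 over all genes. In ileum the median over 7 factors was 0.03, the same as over all genes. In jejunum, Cdx2 differed by 0.30, Pdx1 by 0.12 and Gata4 by less than the SD between spots.

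Gata4 was 2.26-fold higher in G181R ileum than in wild-type ileum, a difference of 1.17 between signals of 44.6 in G181R and 20.9 in wild-type. Both signals were dim, where replicate spots differ with an SD of 0.244. The second Gata4 probe was not well above background in either ileum pool. The difference was 0.43 under the normexp correction and 0.70 as the mean of both probes, so that it passed 2-fold in neither. The genotype difference in ileum exceeded that in jejunum by 1.18 on the brightest probe, a gap that was not tested.

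Osr2 was lower in G181R ileum on both probes, without reaching 2-fold. The differences of G181R minus wild-type in ileum were -0.87 (1.83-fold lower) on the brightest probe and -0.83 (1.78-fold lower) on the junction probe. In jejunum the brightest probe differed by -0.36 and the junction probe by -0.56. Markers of other cell types differed in that pool as well, in both directions. All 8 smooth muscle markers were below 0, 6 of them by at least 2-fold, with a median of -2.44. All 6 fibroblast markers were below 0, with a median of -0.64. Of 5 adipocyte markers, 3 were at least 2-fold lower and 2 were above 0, with a median of -1.05. The 5 nerve and glia markers seen were all below 0, 2 of them by at least 2-fold, with a median of -0.63. All 5 B cell markers were above 0, with a median of 0.77, and 4 of 5 myeloid markers were, with a median of 0.28. The 6 epithelial markers had a median of -0.05. The part of these cells in the Osr2 difference between genotypes was not tested.

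Of the proximal and distal lists, few genes passed 2-fold between the genotypes. None of the 12 proximal genes passed 2-fold, with medians of -0.49 in ileum, where 9 were below 0, and -0.19 in jejunum, where 11 were below 0. Alpi, the intestinal alkaline phosphatase, stood just inside the line, with signals of 1468 in G181R ileum and 3097 in wild-type ileum, and under quantile scaling Alpi and Treh passed it. All 7 distal genes were below 0 in ileum, with a median of -0.37. In jejunum, 4 of the 6 seen on both arrays were above 0 and 2 below, with a median of 0.17. Only Cubn, the cubilin receptor for vitamin B12, was lower in G181R mice by 2-fold or more, with differences of -2.62 in ileum and -1.16 in jejunum. Abcb1a among the CDX targets differed by -2.02 in G181R ileum, and Cldn2 by 1.14 in G181R jejunum, the Cldn2 difference not past 2-fold under normexp. Sis differed in G181R ileum by -0.91 on its brightest probe and -1.81 on a dimmer one, and passed 2-fold as the mean of its probes.

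**Figure D4:**
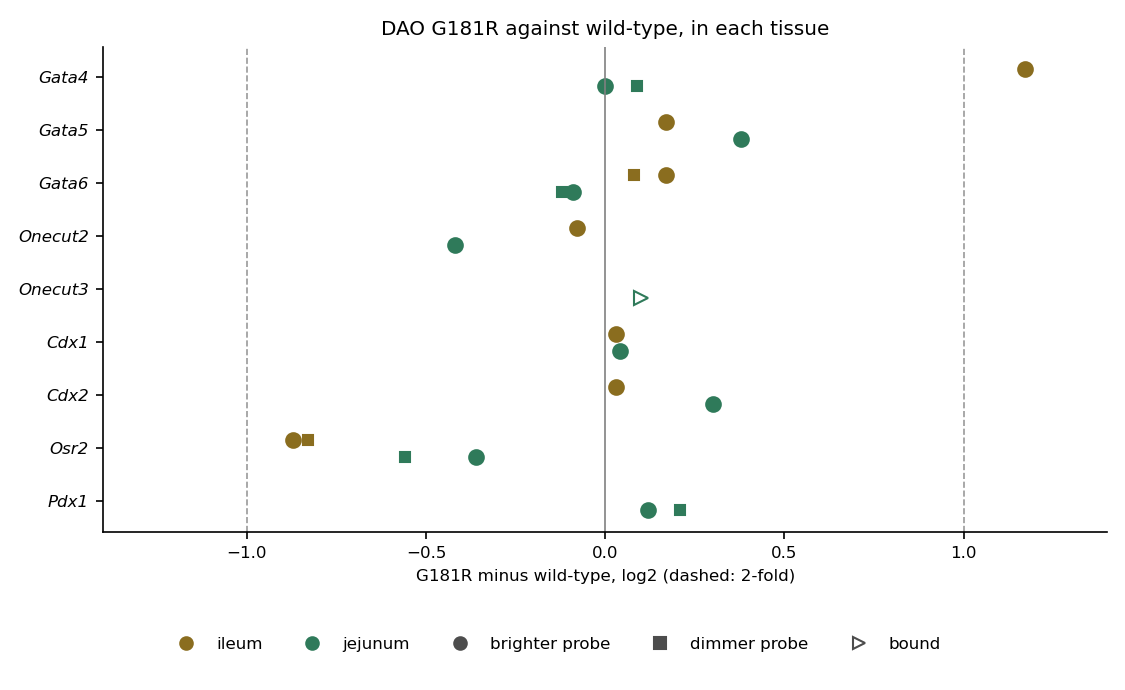
Log2 difference of G181R minus wild-type (horizontal axis, dashed lines at 2-fold) for each probe of the 9 genes, in ileum and jejunum, left out where neither array was well above background. Circles are brighter probes, squares dimmer ones and the open triangle a bound; all values lie within 2-fold except Gata4 in ileum at 1.17, and both Osr2 probes lie below 0 in both tissues.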

How the data were processed

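Scraped epithelium of ileum and jejunum from G181R and wild-type mice was measured on 4 arrays of 1 slide, 1 pool of RNA from 5 mice per group. Per the file headers, the deposited scanner files hold intensity values that Agilent Feature Extraction 11.5.1.1 corrected for background, with a mark for spots well above background. The deposited value table holds log2 values of the same arrays, shifted by a constant on each, and 2356 probes per array stand at a fill value. None of the members' probes does. That table served only as an alternative.

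Control spots were left out, spots of 1 probe were averaged on the log2 scale without those marked as outliers, and each array's 75th percentile was subtracted. The brightest probe stood for a gene name, and 2-fold was the threshold. Where 1 array of a pair was well above background, the other was set to the higher of its own value and the lowest signal well above background there. The genes named are the 9 members with all probes, the 3 nearest genes of each member that varied, and up to 6 genes of each list in the comparison of tissues or of genotypes. Marker genes, Dao and Gata5os were added as checks, and the closing observations name further genes chosen for their values. Members and lists were chosen with earlier results of these data known. No test was run because each group has 1 array, and the count of arrays limits the precision. An additive fit of tissue and genotype, which would take their interaction as error, was not run. The code that counts genes past 2-fold was checked on simulated data. Alternatives were the normexp correction of limma 3.58.1 in R 4.3.3 (offset 50), scaling by the median or by quantiles, no filter on dim probes, the mean of all probes, outlier spots kept, the deposited table, and thresholds of 1.5-fold and 4-fold. The lists were recomputed under these settings after the data had been seen. Other steps used Python 3.11.15 with pandas 2.3.3. Probe positions are those of the files, in mm9, and promoter sequences come from RefSeq on GRCm38.p6, where 3 of the 9 members were matched. Whether a probe lies in an exon or a UTR was not analysed here. Values of 1 listed gene are not reported here.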

Additional observations from a re-analysis of the deposited data

Results flagged for a closer look

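Gata6 differed by small amounts between the DAO genotypes, with opposite signs in the 2 tissues. The difference of G181R minus wild-type was 0.17 in ileum and -0.09 in jejunum on the brightest probe, and 0.08 in ileum and -0.12 in jejunum on the second probe. The ileal signals of the second probe before scaling were 843.9 in G181R and 844.4 in wild-type. Over all genes seen on both arrays, the median absolute difference between genotypes was larger, at 0.23 in ileum and 0.16 in jejunum. With 1 array per group, the difference between the tissues was not tested, and none of the Gata6 values reached 2-fold.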

How the results depend on the processing

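With 1 array per group, no spread between mice enters any value, and ileal signals of Gata4, Onecut2 and Pdx1 lay near the background, which limits their folds. No paired analysis was possible because each group has 1 array. The sample titles do not say whether the ileum and jejunum pools of a genotype came from the same mice. Of 216 member differences recomputed under 6 settings, 175 moved by less than the SD between spots, 41 moved by more, and no difference counted as past 2-fold changed sign. The Pdx1 difference between genotypes in ileum, where neither array was well above background, was 0.01 under normexp in place of -1.23. For Gata5, which was under 2-fold, the mean of both probes gave 0.25 for ileum minus jejunum in G181R, in place of -0.25. Under the settings that keep the 2-fold threshold, 5 or 6 members passed it between tissues in each genotype, and 4 passed the 4-fold threshold. In ileum, the 1 member past 2-fold between genotypes became 0 under normexp, the mean of all probes and the 4-fold threshold, and 2 without a filter and at 1.5-fold. For all genes, ileum against jejunum gave 4159 genes in G181R, which became 1803 under normexp, 6868 without a filter, 8671 at 1.5-fold and 1069 at 4-fold. In wild-type, 4227 became 1866, 6981, 8785 and 1059 in the same order. Between genotypes, 589 in jejunum became 95, 2815, 2207 and 76, and 1493 in ileum became 405, 3508, 4098 and 254. The share of higher calls in the jejunum comparison of genotypes was 65.3% under normexp, beside 44.1%. The cause of these shifts was not tested, apart from the thresholds and filters themselves.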

Other observations

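Smad4, the common mediator of TGF-beta and BMP signals, had 4 probes on the arrays, and all of them were higher in G181R mice in both tissues without reaching 2-fold. The differences of G181R minus wild-type were 0.54 to 0.85 in ileum and 0.63 to 0.89 in jejunum. The 4 probes of Tcf7l2, a mediator of Wnt signals, were also all higher, by 0.24 to 0.57 in ileum and 0.55 to 0.70 in jejunum. Hoxb13, a homeobox gene of the hindgut, was not well above background in ileum, with signals of 1.23 in G181R and 1.46 in wild-type, against 6.39 in G181R jejunum and 21.5 in wild-type jejunum, both well above background. Zfpm2 was seen in wild-type jejunum alone, at a signal of 19.7, and not on its other probes. The choice of these genes followed from their values.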
